A study of Mus musculus with 5 samples.

Results

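The 37 proximal tubule solute carriers described here are membrane transporters that carry phosphate, sugars, carboxylates, sulfate, organic ions, amino acids, acid and base across the cells of the kidney's proximal tubule. They were given as a list of names, and all 37 were found among the 32285 genes of the files. Their RNA was measured by single-cell RNA sequencing (10x Genomics Single Cell 3′ v3.1) in kidneys of 5 mice after ischemia-reperfusion injury (IRI), in which the blood supply is stopped and then restored. Mice 3, 4 and 5 were taken at day 10 and mice 1 and 2 at 48 h, each mouse is 1 library, and no uninjured kidney is among them, so nothing below says how far a level lies from that of a healthy kidney. The labels give no strain, age, sex or genotype. All 5 libraries held UMIs (unique molecular identifiers, 1 per captured RNA molecule) of the Y-linked gene Ddx3y, from 2088 to 3976, and from 2 to 10 UMIs of Xist.

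Proximal tubule cells reclaim most of what the glomerulus filters. Sodium-coupled carriers on the side of the lumen take up phosphate, glucose, amino acids and carboxylates, carriers on the side of the blood pass these on, and organic anion and cation carriers move drugs and metabolites from blood to urine. The tubule runs through segments S1, S2 and S3, which are known to use different carriers for the same solute. Proximal tubule cells are also known as the cells that ischemia damages most, and damaged cells are known to lose differentiated functions.

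The authors' cell table put 4680 of 23797 cells under 5 proximal tubule labels, which are S1, Lrp2-positive S2/3, Lrp2-negative S2/3, injured and cycling. UMIs were summed per label and mouse and are given as counts per 1000000 UMIs of that label and mouse (CPM). Because a 3′ UMI stands for a molecule, the length of a gene does not enter. Values at day 10 are in the order of mice 3, 4 and 5 and those at 48 h in the order of mice 1 and 2. The kept cells held 45887945 to 78351722 UMIs per library, the libraries shared 3 to 10 cell barcodes per pair, and no doublets were removed here.

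Some labels and libraries stand apart and bear on what follows. Every cell of the injured label had at least 2 UMIs of Havcr1, the injury molecule KIM-1, and every cell of the S1 and both S2/3 labels had 0 or 1. The injured label is therefore a cut on a count that also depends on depth, with medians of 28149, 26787 and 27454 UMIs per injured cell at day 10, against 17739 and 32039 at 48 h. Of the injured cells, 70 of 305, 14 of 48 and 61 of 251 at day 10, against 161 of 590 and 46 of 99 at 48 h, lay just above the cut with 2 or 3 Havcr1 UMIs. The Lrp2-negative S2/3 cells were shallow, with medians of 1861.5 to 2406 UMIs per cell, and had 2.84 to 5.48% mitochondrial UMIs, whereas the Lrp2-positive S2/3 cells had 7508.5 to 20624 UMIs and 21.3 to 24.2%. Mouse 4 at day 10 differed from the other mice. In its Lrp2-positive S2/3 cells Kap, an androgen-dependent gene of the mouse proximal tubule, was at 45.4 CPM, against 11076 to 37478 CPM in the others, and in its injured cells 24 of the 37 carriers had their lowest level. Mouse 2 at 48 h also differed. In its injured cells 23 of the 37 carriers had their highest level, and 6 markers of injured tubule summed to 7949 CPM, against 22031 to 45595 CPM in the others. The summed level of 5 immune markers was higher in every day 10 mouse than in both 48 h mice in all 5 proximal tubule labels. In S1 cells it was 525, 266 and 444 CPM at day 10, against 63.3 and 70.6 CPM at 48 h. Without cells that hold a UMI of the immune marker Ptprc, 0 carriers were called in the S1 and both S2/3 labels, 5 in the injured and 18 of 20 tested in the cycling label.

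Across labels the carriers marked the proximal tubule, apart from the cycling label at day 10. In S1 cells their summed level was 10214, 9604 and 11575 CPM at day 10, against 8473 and 10376 CPM at 48 h. In Lrp2-positive S2/3 cells it was 10277, 9202 and 11323 CPM at day 10, against 10105 and 10646 CPM at 48 h. These groups overlap, and the 12 labels not named as proximal tubule, red blood cells left aside, lay between 197.8 and 926.1 CPM. The top of that range was mouse 5 in the label TEC, whose name gives no segment. Endothelial cells reached 768.6 CPM. Lrp2-negative S2/3 cells had 2137, 1783 and 2968 CPM at day 10, against 1535 and 1728 CPM at 48 h, so all 5 mice were far below their own Lrp2-positive cells. Injured cells had 6708, 3871 and 7094 CPM at day 10, against 8114 and 9297 CPM at 48 h, with all 3 day 10 mice below both 48 h mice and mouse 4 lowest. Cycling cells had 341, 404 and 420.0 CPM at day 10, against 3481 and 5543 CPM at 48 h, and at day 10 this is the level of the labels outside the proximal tubule. Immune cells, which are known to use some of the amino acid carriers, had 422, 264 and 469 CPM at day 10, against 415 and 394 CPM at 48 h.

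**Figure D1:**
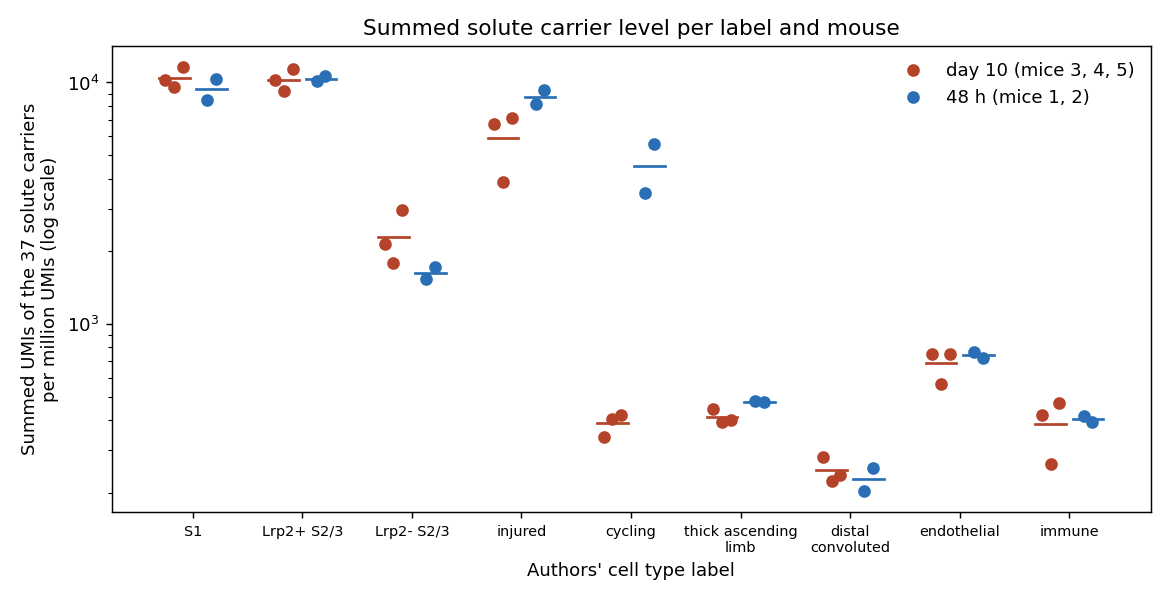
Summed level of the 37 solute carriers in CPM (log scale) for the 5 proximal tubule labels and 4 other labels; each point is a mouse, day 10 in red to the left of 48 h in blue, and lines are group means. The S1 and Lrp2-positive S2/3 points sit between 8473 and 11575, and the cycling points at day 10 sit between 341 and 420, beside the immune cells.

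Phosphate carriers held the largest share of the summed level in S1 and Lrp2-positive S2/3 cells. Slc34a1, the main sodium-phosphate cotransporter of the luminal membrane, was the highest of all 37. In S1 cells it had 3132, 2729.9 and 3764 CPM at day 10, against 1966 and 3355 CPM at 48 h, and in Lrp2-positive S2/3 cells 2753, 2389 and 3307 CPM at day 10, against 2032 and 2838 CPM at 48 h. Mouse 1 was lowest in both labels and the groups overlap. Slc34a3, a second sodium-phosphate cotransporter, had, in S1 cells, 82.5, 30.6 and 92.8 CPM at day 10, against 30.3 and 34.0 CPM at 48 h. It averaged 54.1 CPM in S1 and 9.15 CPM in Lrp2-positive S2/3 cells and was higher in S1 in 5 of 5 mice, with mice 3 and 5 well above the other mice. Slc17a1 and Slc17a3 are known as luminal exporters of organic anions such as urate, and belong to a family first described as phosphate carriers. In Lrp2-positive S2/3 cells Slc17a1 had 429, 289 and 359 CPM at day 10, against 389 and 452 CPM at 48 h. Slc17a3 had 381, 159.5 and 315 CPM at day 10, against 411 and 490.4 CPM at 48 h. For both, mouse 4 was lowest and mouse 2 highest, and all 5 mice were above their own S1 cells.

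The sugar carriers divided by segment. Slc5a2, the sodium-glucose cotransporter SGLT2, had, in S1 cells, 757, 833 and 881 CPM at day 10, against 495 and 626 CPM at 48 h. In Lrp2-positive S2/3 cells it had 184, 262 and 192 CPM at day 10, against 176 and 356 CPM at 48 h. S1 was higher in every mouse, with a ratio of means of 3.07. Slc5a1, the cotransporter SGLT1 of later segments, had, in Lrp2-positive S2/3 cells, 43.5, 41.1 and 55.6 CPM at day 10, against 46.2 and 10.1 CPM at 48 h and 0.281 to 5.45 CPM in S1 cells. It was highest outside the proximal tubule, in the thick ascending limb, at a mean of 120.6 CPM. Slc2a2, the glucose exit carrier GLUT2, had, in S1 cells, 185, 181 and 231 CPM at day 10, against 228 and 228 CPM at 48 h, a narrow range, and was lower in Lrp2-positive S2/3 cells in every mouse. Slc5a10, a carrier of mannose and fructose, had, in Lrp2-positive S2/3 cells, 116, 32.8 and 104 CPM at day 10, against 219.5 and 78.6 CPM at 48 h. Slc2a5, the fructose carrier GLUT5, was low in both labels, between 12.6 and 49.9 CPM.

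Among carboxylate and sulfate carriers, Slc13a1, the luminal sulfate carrier, differed more between mice than between the S1, Lrp2-positive S2/3 and injured labels. Its level in Lrp2-positive S2/3 cells was 945, 907 and 961 CPM at day 10, against 2008 and 491 CPM at 48 h. In injured cells it was 1453, 579 and 1311 CPM at day 10, against 2208 and 504 CPM at 48 h. In the S1, both S2/3 and the injured label mouse 1 was highest and mouse 2 lowest, so both 48 h mice enclose the day 10 mice. Slc5a12, a lactate carrier of early segments, had, in S1 cells, 369, 508 and 544 CPM at day 10, against 407 and 527 CPM at 48 h, and, in Lrp2-positive S2/3 cells, 99.0, 184 and 151 CPM at day 10, against 237 and 317 CPM at 48 h, where no day 10 mouse reached a 48 h mouse. Slc5a8, its high-affinity relative, had, in Lrp2-positive S2/3 cells, 137, 56.3 and 147 CPM at day 10, against 56.9 and 54.1 CPM at 48 h, with mice 3 and 5 above the other mice. Slc13a3, the basolateral dicarboxylate carrier, had, in the same cells, 233, 324 and 272 CPM at day 10, against 277 and 392 CPM at 48 h. The luminal citrate carrier Slc13a2 was low, at a mean of 29.9 CPM, and the basolateral sulfate carrier Slc26a1 had, in S1 cells, 98.4, 101 and 118 CPM at day 10, against 66.2 and 80.5 CPM at 48 h, with all day 10 mice above both 48 h mice.

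Organic anion carriers were the S2/3 side of the list. Slc22a6, the basolateral anion exchanger OAT1, had, in Lrp2-positive S2/3 cells, 572, 288 and 650.2 CPM at day 10, against 753 and 800.3 CPM at 48 h, and, in S1 cells, 51.5, 13.6 and 58.1 CPM at day 10, against 112.1 and 197 CPM at 48 h. Mouse 4 was lowest, and in both labels every day 10 mouse was below both 48 h mice. Slc22a8, the basolateral exchanger OAT3, had, in Lrp2-positive S2/3 cells, 205, 298 and 268 CPM at day 10, against 118 and 143 CPM at 48 h, where the groups do not overlap and mouse 4 was highest. Slc22a12, the luminal urate exchanger URAT1, had 599, 439 and 598 CPM at day 10, against 435 and 470.2 CPM at 48 h, and its groups overlap. Slc22a30, a relative of these exchangers, had 159, 24.6 and 116 CPM at day 10, against 107 and 144 CPM at 48 h, and Slco1a1, an organic anion carrier of the OATP family, had 51.9, 4.30 and 26.0 CPM at day 10, against 44.4 and 14.5 CPM at 48 h. Mouse 4 stood far below the rest for both.

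Most cation carriers lay on the S2/3 side, and amino acid carriers were divided between the segments. The cation carrier Slc22a2 (OCT2, on the side of the blood) had, in Lrp2-positive S2/3 cells, 234, 98.1 and 211 CPM at day 10, against 182 and 167 CPM at 48 h, with mouse 4 lowest. Slc47a1 (MATE1, luminal), which passes cations on into the urine, had 273, 281 and 269 CPM at day 10, against 190.2 and 232 CPM at 48 h. For Slc47a1 the day 10 mice were all higher. Slc22a18 had 252, 269 and 237 CPM at day 10, against 133 and 161 CPM at 48 h, and the carnitine carrier Slc22a5 was low and alike in S1 and Lrp2-positive S2/3 cells, at means of 32.5 and 34.0 CPM. All but Slc22a5 were above S1 in every mouse.

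Slc6a19, the main luminal carrier of neutral amino acids, had, in S1 cells, 191, 530.2 and 459.5 CPM at day 10, against 155 and 277 CPM at 48 h, and its groups overlap. Slc6a18, its relative, had, in Lrp2-positive S2/3 cells, 195, 199 and 177 CPM at day 10, against 119 and 75.6 CPM at 48 h, with all day 10 mice above both 48 h mice. Slc6a20b had 113.1, 96.2 and 130.5 CPM at day 10, against 81.8 and 118 CPM at 48 h, and Slc6a13, a carrier of GABA and taurine, averaged 79.9 CPM. Slc7a7 and Slc7a8, basolateral amino acid exchangers that need the subunit Slc3a2, were on the S1 side, and so was Slc3a2. In S1 cells Slc7a7 had 303, 388 and 426 CPM at day 10, against 306 and 258 CPM at 48 h. Slc7a8 had 133, 154 and 151 CPM at day 10, against 127 and 201 CPM at 48 h. Slc3a2 had 235, 219.6 and 294 CPM at day 10, against 217 and 247 CPM at 48 h. For all 3 the groups overlap. All 3 were also present elsewhere: Slc3a2 was highest in endothelial cells at 359.4 CPM, and immune cells had 34.0 CPM of Slc7a7 and 44.7 CPM of Slc7a8. Slc7a9, the cystine carrier, was on the S1 side, in S1 cells with 112.5, 139 and 159.6 CPM at day 10, against 101 and 94.0 CPM at 48 h. Slc3a1, the subunit it needs, was on the S2/3 side, in Lrp2-positive S2/3 cells with 242, 262 and 268 CPM at day 10, against 233 and 212 CPM at 48 h. In both the CPM of the day 10 mice were all higher. The fitted log2 fold changes were 0.35 for Slc7a9 in S1 cells and 0.08 for Slc3a1 in Lrp2-positive S2/3 cells, and neither passed the test. Slc7a13, which also pairs with Slc3a1 and is known from S3, had, in Lrp2-positive S2/3 cells, 485, 20.7 and 271 CPM at day 10, against 65.8 and 28.4 CPM at 48 h. Mice 3 and 5 were high, and mouse 4, at the same time, was below both 48 h mice.

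Of the 2 acid-base carriers, Slc4a4, the basolateral sodium-bicarbonate cotransporter, had, in S1 cells, 1539.9, 1564 and 1872 CPM at day 10, against 1205 and 1919 CPM at 48 h and averaged 1117.5 CPM in Lrp2-positive S2/3 cells. Slc9a3, the luminal sodium-proton exchanger NHE3, had, in S1 cells, 32.3, 41.4 and 53.9 CPM at day 10, against 30.3 and 51.5 CPM at 48 h. The groups overlap for both, and mouse 2 was above mouse 1.

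In all, 12 carriers were higher in S1 than in Lrp2-positive S2/3 cells in 5 of 5 mice, 21 were lower in 5 of 5, and 4 were mixed. No test was made between labels. The sources used here do not say how the labels were set, and these genes may have entered them. The highest mean over the 17 labels other than red blood cells fell in S1 for 12 carriers, in Lrp2-positive S2/3 for 19, in the injured label for 3 (Slc22a13, Slc13a1 and Slc6a18), in the thick ascending limb for 2 (Slc5a1 and Slc9a3) and in endothelium for 1 (Slc3a2). Reads of the near-identical relatives Slc6a20a and Slc6a20b, and of the Slc22a30 and Slco1a1 families, may be hard to assign to a single gene. The levels of Slc6a20b, Slc22a30 and Slco1a1 are therefore uncertain. The remarks above on overlap between the times compare CPM without normalization factors. On that scale the median log2 fold change over all genes was 0.16 in S1 and 0.17 in Lrp2-positive S2/3 cells. The share of all genes without overlap in these labels is not given, so such a remark is not a call.

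**Figure D2:**
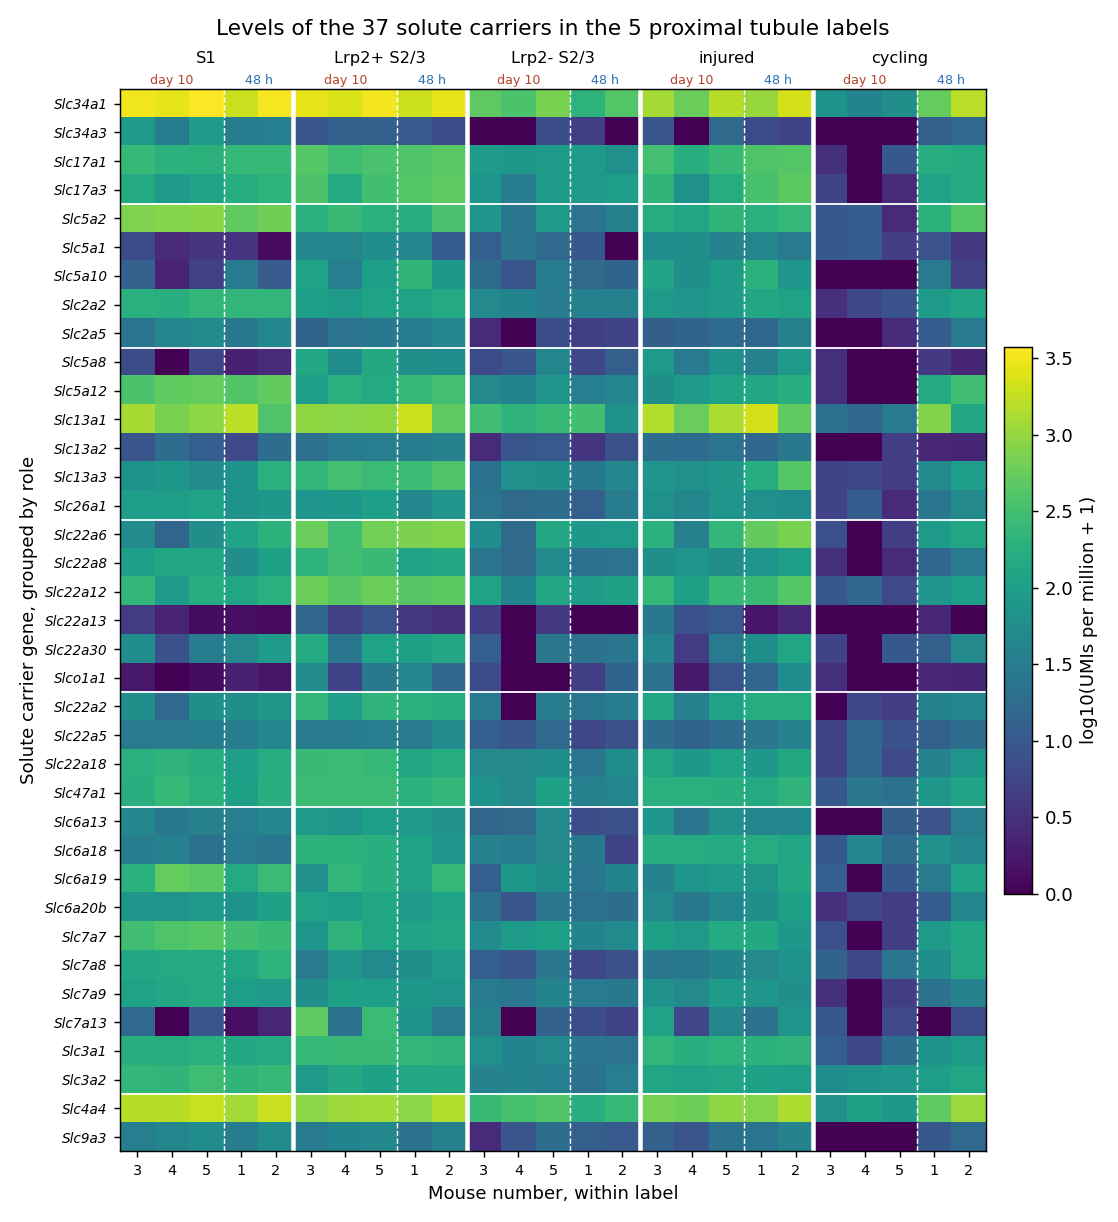
Level of each of the 37 carriers, grouped by role, as log10(CPM + 1) in each mouse of the 5 proximal tubule labels, day 10 columns left of 48 h columns. Slc34a1, Slc4a4 and Slc13a1 are the bright rows, the Lrp2-negative S2/3 columns are dimmer than the Lrp2-positive ones in nearly every row, and the cycling columns at day 10 are dark.

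The carriers lie on 13 chromosomes (GRCm38, mm10), and 3 pairs are close neighbours in the GENCODE M21 annotation. Slc22a6 and Slc22a8 on chromosome 19 are 6.2 kb apart, Slc6a18 and Slc6a19 on chromosome 13 are 1.72 kb apart, and Slc17a1 and Slc17a3 on chromosome 13 are 7.03 kb apart. The promoters of the highest carrier, of both OAT neighbours and of Slc13a3, the carrier with the largest fall in injured cells, are shown. Each is 300 bases of the gene's strand, 5′ to 3′, from 250 bases before to 50 after the start, taken from RefSeq (GRCm38.p6), at chr13:55399398-55399697 (plus strand), chr19:8617746-8618045 (plus strand), chr19:8592932-8593231 (plus strand) and chr2:165473148-165473447 (minus strand).
Slc34a1 promoter: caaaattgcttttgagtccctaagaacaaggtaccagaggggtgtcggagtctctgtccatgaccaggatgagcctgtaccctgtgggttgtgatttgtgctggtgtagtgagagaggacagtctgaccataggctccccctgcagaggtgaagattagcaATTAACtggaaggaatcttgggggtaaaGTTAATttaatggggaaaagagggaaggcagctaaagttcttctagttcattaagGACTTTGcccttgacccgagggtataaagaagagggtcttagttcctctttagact
Slc22a6 promoter: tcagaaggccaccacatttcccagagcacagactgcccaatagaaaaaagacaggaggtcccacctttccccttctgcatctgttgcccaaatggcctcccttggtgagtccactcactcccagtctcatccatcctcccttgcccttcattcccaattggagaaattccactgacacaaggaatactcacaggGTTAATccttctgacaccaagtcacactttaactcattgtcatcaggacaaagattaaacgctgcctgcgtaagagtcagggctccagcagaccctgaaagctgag
Slc22a8 promoter: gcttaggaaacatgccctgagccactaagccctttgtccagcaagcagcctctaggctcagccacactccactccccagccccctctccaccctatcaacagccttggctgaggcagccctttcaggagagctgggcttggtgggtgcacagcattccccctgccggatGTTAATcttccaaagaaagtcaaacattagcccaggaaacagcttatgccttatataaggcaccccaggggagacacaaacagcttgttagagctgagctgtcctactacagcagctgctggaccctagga
Slc13a3 promoter: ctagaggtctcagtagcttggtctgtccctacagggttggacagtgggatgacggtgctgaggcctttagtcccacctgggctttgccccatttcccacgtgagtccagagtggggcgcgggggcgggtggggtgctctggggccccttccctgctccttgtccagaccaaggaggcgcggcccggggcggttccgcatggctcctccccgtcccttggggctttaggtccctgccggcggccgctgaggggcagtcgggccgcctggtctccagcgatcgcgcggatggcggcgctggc
Capitals mark matches, on either strand, to GTTAAT, part of the sites of the tubule factor HNF1, or CAAAGTC, a core of HNF4 sites. The matches to GTTAAT begin 89 and 61 bases before the start in Slc34a1, 56 bases before it in Slc22a6 and 81 bases before it in Slc22a8, and the match to CAAAGTC in Slc34a1 begins 6 bases before it. The Slc13a3 window holds neither. Of the 31 carriers in the promoter table, 7 hold GTTAAT (22.6%, against 8.24% of all genes in the table) and 3 hold CAAAGTC (9.68%, against 5.00%). The 7 are Slc22a6, Slc22a8, Slc34a1, Slc3a1, Slc5a10, Slc6a13 and Slc7a7, and Slc34a1, Slc3a1 and Slc7a7 hold both. Slc5a2, Slc5a12, Slc13a1, Slc6a18, Slc7a13 and Slc47a1 were not in the table. A match is a run of letters and not a measured binding site.

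Between day 10 and 48 h, no carrier passed the test in S1 cells. At an adjusted p under 0.05 the edgeR quasi-likelihood test called 0 of 34 tested carriers, where it called 2.82% of all genes, 9 carriers had an unadjusted p under 0.05 against 15.9% of all genes, and DESeq2 called 0. Slc5a1, Slc22a13 and Slco1a1 did not pass the filter on low counts. The lowest adjusted p was that of Slc22a6, at the CPM given above (log2 fold change -2.02, SE 0.46, adjusted p = 0.0623), where all 3 day 10 mice were below both 48 h mice. The next largest downward estimate was that of Slc5a10 (-1.75), at 11.5, 1.24 and 3.84 CPM at day 10, against 27.7 and 9.57 CPM at 48 h. After it came that of Slc22a30 (-1.20), at 56.2, 6.62 and 31.4 CPM at day 10, against 46.6 and 89.5 CPM at 48 h. The largest upward ones were those of Slc7a13 (3.00, SE 1.23), at 15.6, 0 and 8.18 CPM at day 10, against 0.370 and 1.41 CPM at 48 h, Slc5a8 (1.24) and Slc34a3 (0.97). In all but Slc22a6 the groups overlap. The 48 h levels of Slc7a13 alone would not have passed the filter on low counts. The filter thus favoured a rise of Slc7a13, also in the fit without mouse 4 given below, where its call is weak support for one. Slc34a1, the most abundant, had a log2 fold change of 0.12. The median over the carriers was -0.09, and over all genes 0.01, and with raw totals in place of normalization factors these were 0.06 and 0.16. The count depended on single mice. Without mouse 4, 3 carriers passed, Slc7a13 and Slc34a3 higher and Slc22a6 lower at day 10, and without mouse 1 Slc13a3 passed as lower.

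In Lrp2-positive S2/3 cells the result was alike. The test called 0 of 37 carriers, with 1.07% of all genes called, 13 carriers at an unadjusted p under 0.05 against 18.0% of all genes, and 3 carriers called by DESeq2, Slc22a8 and Slc6a18 as higher and Slc5a12 as lower at day 10. The largest upward estimates were those of Slc7a13 (log2 fold change 2.43, SE 1.02), Slc22a13 (1.82) and Slc5a8 (0.92). Slc22a13 averaged only 6.10 CPM here. Its 48 h levels alone would not have passed the filter on low counts, so the filter favoured a rise. The largest downward estimates were those of Slc5a12 (-1.09), Slc2a5 (-1.08) and Slc5a10 (-0.89). Without mouse 4 the test called 3 carriers, Slc7a13 and Slc5a8 higher and Slc5a12 lower. With all 5 labels summed, 0 of 37 were called, with 3.22% of all genes called, 8 carriers at an unadjusted p under 0.05 against 22.7% of all genes, and 6 by DESeq2. The sum mixes labels whose cell numbers differ between mice. Without mouse 1 the count in the sum was 3.

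Lrp2-negative S2/3 cells had less of the carriers per UMI than Lrp2-positive cells. The ratio of means was below 1 in all 5 mice for all 35 carriers with at least 20 CPM in Lrp2-positive cells, with a median of 0.204 and a range from 0.0667 for Slc7a13 to 0.499 for Slc7a7. The median over all 4815 genes at that level was 1.31. Over 9 proximal tubule markers the median was 0.957. Among these, Lrp2 and Cubn, membrane receptors for filtered proteins, had ratios of 0.195 and 0.262, and of genes that code for no membrane protein Kap had 0.263, Pck1 0.720 and Fbp1 1.19. The shallow depth and low mitochondrial share of these cells stand beside this contrast, and their part in it was not tested. Between day 10 and 48 h, 0 of 23 tested carriers were called in these cells, with 1.43% of all genes called, 6 carriers at an unadjusted p under 0.05 (all higher at day 10) against 13.4% of all genes, and 0 by DESeq2. Slc5a2 had 73.8, 24.0 and 83.7 CPM at day 10, against 22.1 and 35.5 CPM at 48 h (log2 fold change 1.26, SE 0.40, adjusted p = 0.154). Its groups overlap, since mouse 4 lay between both 48 h mice. Slc3a1 (1.13) had 61.5, 40.0 and 49.6 CPM at day 10, against 24.5 and 22.2 CPM at 48 h. Slc34a1 had 485, 368 and 726 CPM at day 10, against 201 and 415 CPM at 48 h. For Slc3a1 all day 10 mice were higher, and for Slc34a1 mouse 4 lay between both 48 h mice. The lowest estimate was that of Slc22a30 (-0.73). Without mouse 1, Slc13a1 and Slc6a18 passed, and without mouse 2, Slc5a2 and Slc34a1, all as higher at day 10.

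Injured cells lay between. Over the 35 carriers with at least 20 CPM in Lrp2-positive S2/3 cells, the median ratio of injured to Lrp2-positive cells was 0.678, against 1.11 over all 4815 genes at that level. The median over 9 proximal tubule markers, 0.488, was lower than that of the carriers. For the carriers it was 0.626 at day 10 and 0.873 at 48 h. The ratio ran from 0.296 for Slc7a13 to 1.14 for Slc13a1, and 18 carriers were below 1 in all 5 mice while none was above 1 in all 5. No test was made, since these genes may have entered the labels.

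The injured label was the 1 label, of those that kept proximal tubule markers at both times, in which carriers passed the test. There, 6 carriers fell and 1 rose at day 10 against 48 h, out of 37 tested, where 5.88% of all genes were called (3.12% lower and 2.76% higher). The 6 that fell were the dicarboxylate carrier Slc13a3, the lactate carrier Slc5a12, the carnitine carrier Slc22a5, the anion exchanger Slc22a8, the glucose exit carrier Slc2a2 and the amino acid exchanger Slc7a8. The 1 that rose was Slc22a13, a luminal anion exchanger known as OAT10. In all, 33 of the 37 log2 fold changes were below 0, and their median was -0.93, against 0.04 over all genes. The CPM of 14 carriers were lower in every day 10 mouse than in both 48 h mice, as were those of 8.04% of all genes, and those of 2 carriers, Slc22a13 and Slc3a2, were higher, as were those of 52.5%. The fitted log2 fold change of Slc3a2 was -0.19. The summed level averaged 5891 ± 1760 CPM at day 10 (SD, n = 3), against 8706 ± 837 CPM at 48 h (SD, n = 2).

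Slc13a3 had, in injured cells, 72.1, 61.4 and 76.9 CPM at day 10, against 164 and 425 CPM at 48 h (log2 fold change -2.47, SE 0.37, adjusted p = 0.0164). Every day 10 mouse was below 80 CPM and both 48 h mice were above 160 CPM. Slc5a12 had 56.9, 87.4 and 115 CPM at day 10, against 135 and 173 CPM at 48 h (log2 fold change -1.25, SE 0.29, adjusted p = 0.0468). Slc2a2 had 88.4, 71.7 and 92.1 CPM at day 10, against 140.3 and 116 CPM at 48 h (log2 fold change -1.01, SE 0.21, adjusted p = 0.0367). In both the groups do not overlap, and mouse 5 lay closest to the 48 h mice.

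Slc22a8 had 58.7, 70.1 and 57.8 CPM at day 10, against 74.7 and 96.5 CPM at 48 h (log2 fold change -0.89, SE 0.18, adjusted p = 0.0355). Slc22a5 had 18.4, 13.4 and 17.9 CPM at day 10, against 25.6 and 37.4 CPM at 48 h (log2 fold change -1.26, SE 0.25, adjusted p = 0.0355). Slc7a8 had 25.4, 26.8 and 40.7 CPM at day 10, against 47.3 and 66.5 CPM at 48 h (log2 fold change -1.25, SE 0.27, adjusted p = 0.0400). All 3 had their highest level in mouse 2, and no day 10 mouse reached a 48 h mouse. Slc22a13 had 27.3, 7.09 and 9.003 CPM at day 10, against 0.620 and 1.53 CPM at 48 h (log2 fold change 3.81, SE 0.79, adjusted p = 0.0377), from 231, 9 and 64 UMIs at day 10, against 9 and 5 UMIs at 48 h. The day 10 mice were all higher, and mouse 3 held most of the UMIs. The 48 h levels of Slc22a13 alone would not have passed the filter on low counts. The filter thus favoured a rise, and the call is weak support for one.

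**Figure D3:**
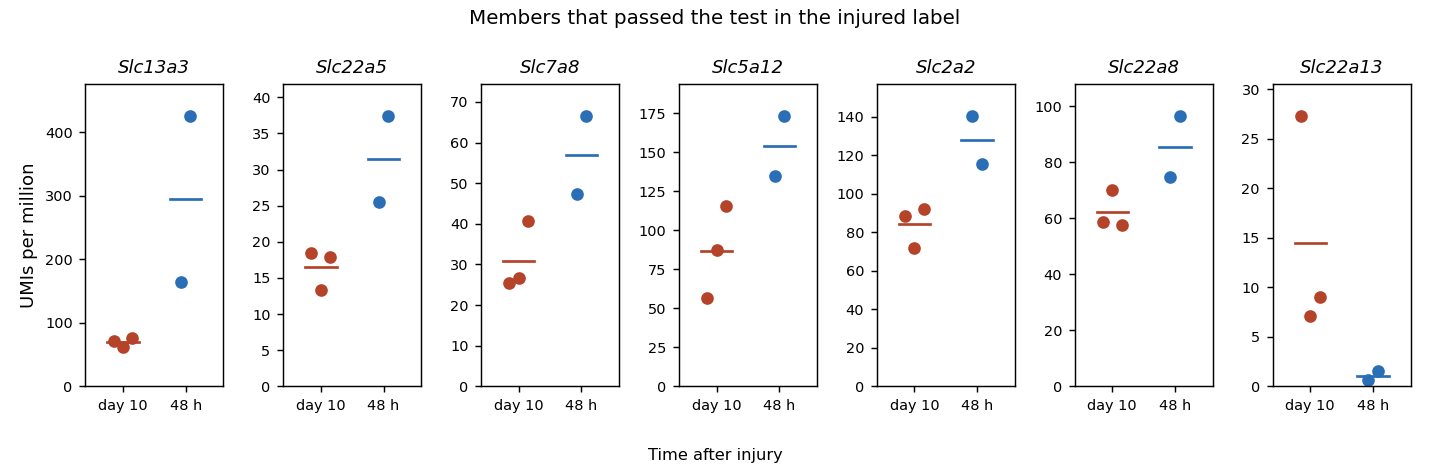
CPM in injured cells of the 7 carriers that passed the test, 1 panel per gene; each point is a mouse, day 10 in red to the left of 48 h in blue, and lines are group means. In all 7 panels the day 10 points and the 48 h points do not overlap, and Slc22a13 is the panel in which day 10 is higher.

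Other carriers of the injured label had large estimates that missed the threshold. Slc22a6 had 191, 35.4 and 229 CPM at day 10, against 512 and 725 CPM at 48 h (log2 fold change -2.38, SE 0.62, adjusted p = 0.0619), and Slc22a30 had 44.7, 3.15 and 28.3 CPM at day 10, against 58.9 and 126 CPM at 48 h (log2 fold change -2.07, SE 0.64, adjusted p = 0.0917). Mouse 4 was lowest in both, but the other day 10 mice were also below both 48 h mice. Slc34a1 had 1243, 598 and 1533 CPM at day 10, against 1054 and 2216 CPM at 48 h (log2 fold change -0.93, SE 0.45, adjusted p = 0.224), and its groups overlap. After Slc22a13 the highest estimates were those of Slc34a3 (0.58) and Slc5a1 (0.05), at 53.4, 59.9 and 38.3 CPM at day 10, against 41.5 and 29.1 CPM at 48 h, and neither passed. Slc17a1 had 316, 173 and 265 CPM at day 10, against 393 and 417 CPM at 48 h, again with every day 10 mouse below both 48 h mice and no call (log2 fold change -1.08, SE 0.28, adjusted p = 0.0623). Slc4a4 had 692, 602 and 959 CPM at day 10, against 821 and 1388 CPM at 48 h. Slc5a2 had 165, 124 and 219 CPM at day 10, against 184 and 236 CPM at 48 h. Both overlap, with mouse 4 lowest and mouse 2 highest. By role, the summed organic anion carriers had 582, 224 and 582 CPM at day 10, against 923 and 1437 CPM at 48 h, without overlap, with 1 of 6 lower and 1 of 6 higher by the test. The summed amino acid carriers had 1000.5, 745 and 1014 CPM at day 10, against 937 and 1016 CPM at 48 h, which overlap, with 1 of 10 lower. Of the 4 phosphate and the 2 acid-base carriers none passed, of the 5 sugar carriers 1 fell, of the 6 carboxylate and sulfate carriers 2 fell, and of the 4 cation carriers 1 fell.

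Fold changes come from a fit with normalization factors, and in the injured label these moved them down from the ratio of CPM. With raw totals the median over all genes was 0.45, the median over the carriers -0.54, and 24 of 37 carriers were below 0. The gap between both medians was -0.98 there and -0.97 in the reported fit, and 5 carriers were called, 3 of them among the 7. The injured cells at day 10 had a lower mitochondrial share, with 17.5, 12.2 and 16.7% in the day 10 mice, against 21.3 and 24.0% at 48 h. They also had a higher sum of 5 immune markers (651.3, 326.1 and 928.5 CPM at day 10, against 38.7 and 39.5 CPM at 48 h), of which none was at 0. With only cells under 20% mitochondrial UMIs 5 carriers fell and none rose, and 3 of these were among the 7. Without cells that hold a UMI of the immune marker Ptprc the 5 that fell were all among the 7. The count rests on few mice, since it was 1 without mouse 2 (Slc13a3), 0 without mouse 3 and 3 without mouse 5. It was 6 without mouse 1, of which 4 were among the 7, and 5 without mouse 4, of which 2 were.

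The difference of the time effect between the injured and the Lrp2-positive S2/3 label, tested as an interaction with mouse as a block, passed for 10 of 37 carriers, all more negative in injured cells, where 1.94% of all genes passed (1.29% more negative). They were the anion carriers Slc22a6, Slc22a8, Slc22a12 and Slc22a30, the cation carrier Slc22a2, Slc13a3, Slc17a3, the amino acid carriers Slc6a18 and Slc6a20b, and the sodium-proton exchanger Slc9a3. All but Slc9a3 were among the 21 carriers that were lower in S1 than in Lrp2-positive S2/3 cells in every mouse. The injured label is not split by segment. Whether its mix of segments differed between the times was not tested. Slc22a8 had the lowest adjusted p (log2 difference -1.68, SE 0.18, adjusted p = 0.00237). Its level at day 10 was lower than at 48 h in injured cells and higher in Lrp2-positive S2/3 cells, at the CPM given above for both labels. Slc22a6 differed by -1.78 (SE 0.34, adjusted p = 0.0228) and Slc13a3 by -1.88 (SE 0.27, adjusted p = 0.00985). Slc6a18 had, in injured cells, 168, 163 and 150.2 CPM at day 10, against 164 and 127 CPM at 48 h, and, in Lrp2-positive S2/3 cells, 195, 199 and 177 CPM at day 10, against 119 and 75.6 CPM at 48 h (log2 difference -1.12, SE 0.16, adjusted p = 0.00996). So the groups overlap in injured cells and do not in Lrp2-positive S2/3 cells.

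Slc22a30 differed by -1.74, Slc22a12 by -1.34 and Slc22a2 by -1.16. In injured cells Slc22a12 had 241, 108 and 251 CPM at day 10, against 263 and 435 CPM at 48 h. Slc22a2 had 127, 35.4 and 116 CPM at day 10, against 162 and 165 CPM at 48 h. For both every day 10 mouse was below both 48 h mice, while in Lrp2-positive S2/3 cells the groups overlap. Slc17a3 (-1.11) had, in injured cells, 217, 61.4 and 161 CPM at day 10, against 344 and 465 CPM at 48 h. Slc6a20b (-1.42) had 50.6, 26.0 and 46.4 CPM at day 10, against 57.6 and 111.3 CPM at 48 h. Slc9a3 (-1.69) had, in injured cells, 12.1, 7.88 and 21.2 CPM at day 10, against 22.7 and 38.6 CPM at 48 h, and, in Lrp2-positive S2/3 cells, 28.9, 39.5 and 46.3 CPM at day 10, against 21.3 and 35.8 CPM at 48 h. For these 3, too, the groups do not overlap in injured cells. With raw totals the same 10 passed, while the median over all genes was 0.21, against -0.04. Without mouse 2 the count was 1 and without mouse 5 it was 2, without mouse 3 it was 6, without mouse 1 it was 13 and without mouse 4 it was 17.

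**Figure D4:**
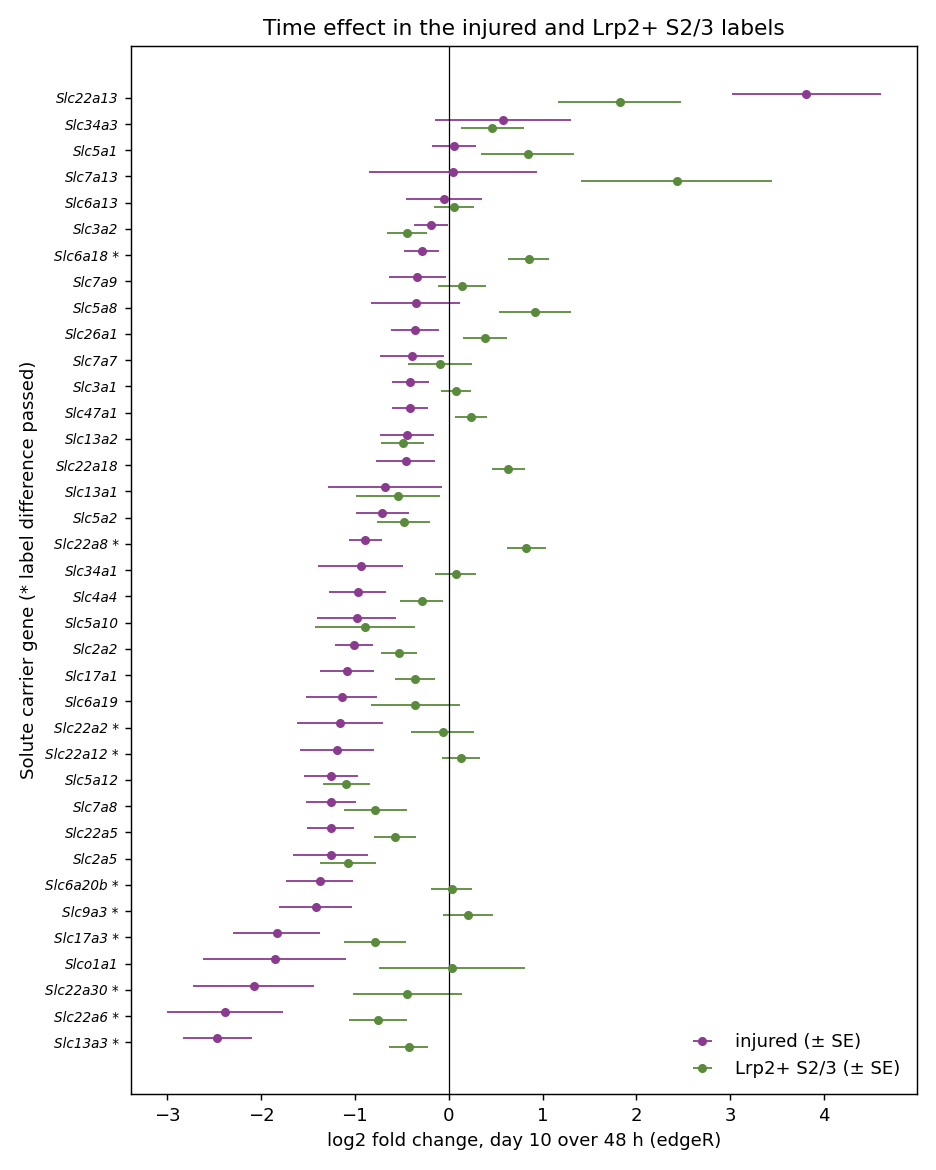
log2 fold change of day 10 over 48 h with its standard error for the 37 carriers in injured cells (purple) and in Lrp2-positive S2/3 cells (green), sorted by the injured label. Most purple points lie left of 0 and left of their green partner, Slc22a13 lies to the right, and stars mark the 10 carriers whose difference passed the test.

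The same test between S1 and Lrp2-positive S2/3 passed for 3 of 37 carriers, where 0.369% of all genes passed. The neutral amino acid carrier Slc6a19 (log2 difference 1.10, SE 0.16, adjusted p = 0.00719) and the lactate carrier Slc5a12 (log2 difference 0.99, SE 0.15, adjusted p = 0.00740) had a more positive time effect in S1. The anion exchanger Slc22a6 had a more negative one (log2 difference -1.30, SE 0.23, adjusted p = 0.0265). Slc6a19 had, in Lrp2-positive S2/3 cells, 62.0, 234 and 172 CPM at day 10, against 115 and 237 CPM at 48 h, and its groups overlap in each label taken alone. Mouse 3 was the lowest day 10 mouse in both. The block for mouse removes such differences, which both labels of a mouse share. The count was 4 without mouse 1, 0 without mouse 2, 4 without mouse 3, 9 without mouse 4 and 0 without mouse 5.

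The adhesion molecule Vcam1, known from proximal tubule cells that do not recover after injury, was higher in the injured label at day 10, with 420.4, 347 and 385 CPM at day 10, against 27.3 and 7.97 CPM at 48 h, and the groups do not overlap. Splitting injured cells by Vcam1 was chosen after the data were seen. Cells with a Vcam1 UMI had less of the carriers than those without in all 5 mice, at 5136, 2606 and 6056 against 8966, 5858 and 9675 CPM in mice 3, 4 and 5, and 6298 and 6729 against 8418 and 9386 CPM in mice 1 and 2. They were 174 of 305, 31 of 48 and 183 of 251 cells at day 10, against 69 of 590 and 8 of 99 at 48 h, a share that depends on depth. Their median depth was 29645, 25952 and 27165 UMIs, against 26128, 29199 and 28167 UMIs without, in the day 10 mice. In the 48 h mice the depths lay further apart and in opposite directions. They were 25516 UMIs with and 16808 UMIs without in mouse 1, and 9455.5 UMIs with and 35772 UMIs without in mouse 2. The part of depth in the contrast was not tested. In all 3 day 10 mice 27 of the 37 carriers were lower in cells with a Vcam1 UMI, as were 9.22% of the genes tested in the injured label, and none was higher in all 3, against 47.7% of those genes. The lowest ratio was that of Slc22a8, with day 10 means of 22.5 CPM with and 130.2 CPM without a Vcam1 UMI. Slc22a6 had 74.0 and 296.6 CPM, Slc22a12 101.2 and 375.6 CPM, and Slc34a1 801.1 and 1692.4 CPM. Slc3a2 (122.7 and 123.2 CPM), Slc5a1 (52.2 and 48.4 CPM) and Slc4a4 (717.5 and 806.6 CPM) differed little. These are cells of the same mice and no test was made.

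Among injured cells without a Vcam1 UMI, the time comparison left 1 of 37 carriers past the threshold, Slc22a13, which was higher at day 10. In those cells it had 29.4, 6.07 and 17.7 CPM at day 10, against 0.643 and 1.59 CPM at 48 h. Here too its 48 h levels alone would not have passed the filter on low counts. The median log2 fold change over the carriers was -0.25. The estimate of Slc22a8 was 0.32 there, above 0, with an adjusted p of 0.632. The difference from the Lrp2-positive S2/3 label then passed for 0 of 37, with 12 at an unadjusted p under 0.05. These were 131, 17 and 68 cells at day 10, against 521 and 91 cells at 48 h. A fit on fewer cells can call fewer genes, and the share of all genes called in this subset is not given here. The lower counts therefore do not show that the time effect lies in cells with a Vcam1 UMI. With only injured cells that had at least 10 Havcr1 UMIs, 8 carriers passed, all lower at day 10 and 3 of them among the 7, from 156, 20 and 106 cells at day 10, against 286 and 14 cells at 48 h.

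**Figure D5:**
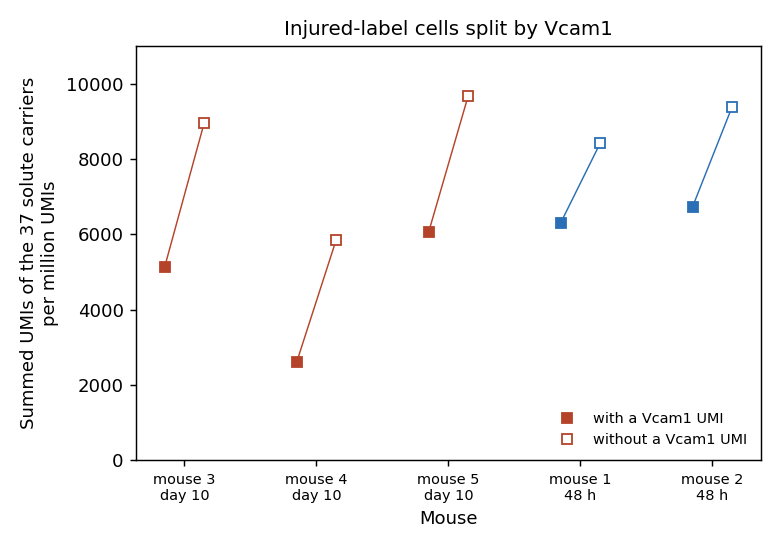
Summed level of the 37 carriers in CPM in injured cells with a Vcam1 UMI (filled) and without (open) in each mouse, day 10 mice left of 48 h mice. The filled point is below the open one in all 5 mice, and mouse 4 is lowest in both.

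At day 10 the cycling label went against the proximal tubule part of its name. There it had 40.5, 44.9 and 54.9 CPM of Lrp2, against 547.9 and 1080 CPM at 48 h. It had 404.9, 239.3 and 411.4 CPM of Slc12a3, the sodium-chloride cotransporter of the distal convoluted tubule, at day 10, against 10.1 and 0 CPM at 48 h. Slc34a1 had 66.1, 39.9 and 56.6 CPM at day 10, against 532 and 1611 CPM at 48 h, and Slc13a1 had 19.2, 14.96 and 27.4 CPM at day 10, against 781 and 144 CPM at 48 h. The summed thick ascending limb markers had 684.0, 393.9 and 1536 CPM at day 10, against 289.2 and 214.7 CPM at 48 h. Its part in the fall of the carriers was not tested. The test called 22 of 22 tested carriers as lower at day 10, where 10.6% of all genes were called as lower. The other 15 did not pass the filter on low counts, and a carrier that passed it only through its 48 h level had to differ, so the count says nothing about a carrier within proximal tubule cells. The lowest estimates were those of Slc5a12, from 1, 0 and 0 UMIs at day 10, against 107 and 228 UMIs at 48 h, of Slc17a3, from 2, 0 and 1 UMIs at day 10, against 82 and 120 UMIs at 48 h, and of Slc5a2, from 4, 2 and 1 UMIs at day 10, against 138 and 311 UMIs at 48 h. The values were from 34, 18 and 35 cells at day 10, against 117 and 86 at 48 h.

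Of 15 transport partners and scaffolds, Car2, the cytosolic carbonic anhydrase that feeds bicarbonate transport, fell in the S1, both S2/3 and the injured label. In Lrp2-positive S2/3 cells it had 254, 263 and 329 CPM at day 10, against 514 and 712 CPM at 48 h (log2 fold change -1.26, SE 0.20, adjusted p = 0.0333), without overlap. In S1 cells Cltrn, the partner that brings Slc6a19 to the membrane, had 2149, 1963 and 2370.4 CPM at day 10, against 1134 and 1269.6 CPM at 48 h (log2 fold change 0.70, SE 0.15, adjusted p = 0.0448), while Aqp1, a water channel, had 101, 104 and 84.6 CPM at day 10, against 37.7 and 44.7 CPM at 48 h (log2 fold change 1.07, SE 0.17, adjusted p = 0.0160). Both rose, with no overlap between the groups. In injured cells 4 of the 15 fell and none rose, where 3.12% of all genes were called as lower. Among them the scaffold Slc9a3r1 had 139, 150.4 and 156 CPM at day 10, against 182 and 191 CPM at 48 h (log2 fold change -0.75, SE 0.16, adjusted p = 0.0415), and Car2 and Atp1b1 also fell.

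Of 9 transcription factors of the proximal tubule, none passed in the S1 or either S2/3 label, and Nr1h4 and Esrra fell in injured cells. Nr1h4, the bile acid receptor FXR, had 49.8, 58.3 and 63.3 CPM at day 10, against 73.6 and 112.8 CPM at 48 h (log2 fold change -1.12, SE 0.22, adjusted p = 0.0355). Of 34 other plasma membrane transporters of the proximal tubule, 2 of 33 tested fell in injured cells, the urate exporter Abcg2 and Slc36a1. In that label 3.12% of all genes were called as lower. In S1 cells 2 of 30 fell, Slc51a and Slc16a4, where 2.43% of all genes were called as lower, and in Lrp2-positive S2/3 cells 0 of 32. In Lrp2-negative S2/3 cells 1 of 11 rose, the taurine carrier Slc6a6, where 0.724% of all genes were called as higher. Counts of 1 or 2 genes are too few to set apart from these shares. The other genes whose symbols begin with Slc or Slco and a digit number 353 and hold most of those 34. Of the 353, 223 were tested in the injured label, with 16 lower and 3 higher, beside 3.12% and 2.76% of all genes. Their median log2 fold change was -0.23. In the same label the median was -0.81 over the 15 partners and scaffolds, -0.59 over the 9 transcription factors, -0.65 over the 33 other proximal tubule transporters tested and -0.93 over the 37 carriers.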

How the data were processed

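Single cells of 5 mouse kidneys were measured after ischemia-reperfusion injury, 3 at day 10 and 2 at 48 h. Gene-by-cell UMI counts had been made by the authors with Cell Ranger against mm10 (version 6.0.2 per the submitters' processing notes and 6.0.0 per the file headers), and the deposited cell table, made with Seurat 4.0.5 per the submitters' processing notes, gave cluster and cell type labels. Its percent of mitochondrial UMIs per cell is the authors' value, as deposited. In that table every cell had at least 1000 UMIs, 300 to 7000 genes and under 35% mitochondrial UMIs. The authors' labels were used as given. No free RNA or doublets were removed here, and the sources used here do not say whether the authors did so.

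UMI counts were summed per mouse and label and divided by their total (CPM). Day 10 was compared with 48 h by the quasi-likelihood F test of edgeR 4.0.16 (R 4.3.3) with filterByExpr, TMM factors and Benjamini-Hochberg adjustment over all genes of a label, at a threshold of 0.05 on the adjusted p, two-sided. A label was fitted where every mouse had at least 10 cells. The difference of the time effect between labels was an interaction term with mouse as a block. DESeq2 1.42.0 was an alternative, and the fits were tested on simulated data. The mouse is the replicate. Kept cells per library numbered 3720 to 5912, with 45887945 to 78351722 UMIs, and CPM from few UMIs carry counting error.

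Alternatives were other normalizations, no filter on low counts, DESeq2, cells under 20% mitochondrial UMIs, cells thinned to 1000 UMIs, cells without a Ptprc UMI, and each mouse left out. Alternatives by Havcr1 or by Vcam1 were chosen after seeing the data. The 37 carriers and the lists were chosen with earlier results of these data known. Named with the value in every mouse were carriers past the threshold in any fit, the 3 largest changes each way per label, the 5 most abundant, and 9 chosen carriers, in the label where each was described, and the rest by range and count. Of the lists, at most 6 genes past the threshold per label were named, and some list genes are not reported here. The promoter sequences are from RefSeq (GRCm38.p6) and gene positions from GENCODE M21.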

Additional observations from a re-analysis of the deposited data

Results flagged for a closer look

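The time effect of 13 pairs of label and carrier differed from that in Lrp2-positive S2/3 cells by the interaction term of edgeR's quasi-likelihood test. Between S1 and Lrp2-positive S2/3 cells the log2 difference was 1.10 for Slc6a19, 0.99 for Slc5a12 and -1.30 for Slc22a6. Between injured and Lrp2-positive S2/3 cells it was -1.68 for Slc22a8, -1.74 for Slc22a30, -1.88 for Slc13a3, -1.12 for Slc6a18 and -1.42 for Slc6a20b. For the other 5 it was -1.11 for Slc17a3, -1.69 for Slc9a3, -1.16 for Slc22a2, -1.78 for Slc22a6 and -1.34 for Slc22a12. Slc22a6 was more negative in both contrasts, which share the Lrp2-positive S2/3 cells. The injured label is not split by segment and is a cut on Havcr1 UMIs. With only injured cells that had at least 10 of them, 9 carriers passed, all among these 10.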

How the results depend on the processing

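Of 148 values of counts and sums under an alternative, 110 stayed near the reported value (counts within 1.5 times of it, sums by less than 1 SD between mice on the log2 scale) and 38 moved; of 797 values of single carriers, 641 kept direction and side of the threshold, 109 lost the threshold, 37 gained it and 10 turned direction. Where none is given, the cause was not tested. Without the filter on low counts, the carriers called numbered 9 in S1, 12 in Lrp2-positive S2/3, 23 in injured and 4 in summed proximal tubule cells, and 9 and 21 for the S1 and injured differences. DESeq2 called 3 in Lrp2-positive S2/3, 14 in injured and 6 in summed cells. Thinning to 1000 UMIs per cell, which leaves few UMIs, called 1 in S1, 4 of 30 tested in injured and 1 in cycling cells. Cells under 20% mitochondrial UMIs gave 2 in summed cells, and 1 and 6 for the S1 and injured differences. Injured cells without a Vcam1 UMI gave 1, and 0 for the difference. Shares of all genes called are given for the reported fits only. A count under an alternative therefore does not set the carriers apart from other genes.

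Leaving out each mouse in turn gave 0 to 3 calls in S1, 0 to 3 in Lrp2-positive S2/3, 0 to 2 in Lrp2-negative S2/3, 0 to 6 in injured and 0 to 3 in summed cells. The S1 difference ranged from 0 to 9 and the injured difference from 1 to 17. The summed cycling ratio of day 10 over 48 h, 0.0861, was 0.125 without the 5 highest carriers, 0.111 under 20% mitochondrial UMIs, 0.232 as a mean over cells and 0.0700 to 0.112 without a mouse. The ratio over all proximal tubule cells, 0.991, was 1.20 as a mean over cells, which gives shallow cells the same weight.

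Direction turned for these estimates: Slc22a8 in injured cells without a Vcam1 UMI (0.32), Slc5a1 in injured cells without Ptprc (-0.0202), with at least 10 Havcr1 UMIs (-0.29) and without a mouse (-0.17 to 0.35), Slc34a3 in injured cells without a mouse (-0.21 to 0.92), Slc22a2 in Lrp2-negative S2/3 cells (-0.36 to 0.10) and Slc5a10 in summed cells (-1.70 to 0.0363, the highest without mouse 1). No paired analysis was possible because the mouse numbers are not shared between the times. With 3 and 2 mice, no uninjured kidney and labels partly set by Havcr1 depth, small changes were not detectable.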
